A study of Mus musculus with 6 samples.

Results

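Meiotic silencing and damage response factors are the proteins that mark unsynapsed chromosomes in spermatocytes and shut down their transcription, most visibly on the X and Y chromosomes of the male. The 10 genes described here (Atm, Atr, Topbp1, Brca1, H2ax, Mdc1, Rnf8, Scml2, Setdb1 and Hormad2) were chosen by name for this role from 53700 gene identifiers. Earlier results of these data were known when they were chosen. Their reads were taken from whole testes collected at postnatal day 45 from 3 mice of genotype MSL3 WT (wild type, WT) and 3 of genotype MSL3 cKO (conditional knockout, cKO), all of the strain written Msl3em1Forni/C57BL/6J. In the labels the cKO mice carry a floxed allele of Msl3, an allele in which recombination can remove part of the gene. Msl3 encodes a chromodomain subunit of the male-specific lethal histone acetyltransferase complex. The recombinase, the cells it acts in and the exons removed are not given in the sources used here. Single-end reads of 75 bases were sequenced from total RNA, and each mouse gave 1 library.

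In pachytene spermatocytes the X and Y chromosomes stay largely unpaired and are packed into a silent domain, the sex body. HORMAD proteins mark the unsynapsed axes and BRCA1 helps recruit the kinase ATR there with its activator TOPBP1. ATR phosphorylates the histone variant H2AX, MDC1 binds that mark and spreads it into chromatin loops, and RNF8, SCML2 and SETDB1 act on the chromatin of the sex body during meiosis or afterwards. The kinase ATM acts earlier, at the programmed DNA breaks of meiotic recombination.

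Between 56991431 and 73766444 reads per library were assigned to genes on the strand used for counting. The targeted gene Msl3 was at 16.0, 18.9 and 15.9 CPM (the usual depth-scaled read count, here on library sizes scaled by edgeR's trimmed mean of M values, TMM) in WT replicates 1, 2 and 3. It was at 16.0, 14.8 and 15.8 CPM in the libraries labelled cKO 1, 2 and 3, a log2 fold change of -0.12 (SE 0.088, edgeR adjusted p = 0.551). A gene count covers every exon, so it cannot show whether part of the gene was removed, and every direction given is that of cKO as labelled against WT as labelled. Markers of germ cells from spermatogonia to elongating spermatids and of the somatic cells of the testis all had reads in each library.

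All 10 genes had enough reads to be tested, and none passed an edgeR adjusted p of 0.05, which 0.0183% of the 21902 genes tested did. Levels were higher on average in the cKO libraries for 8 genes and lower for 2, with log2 fold changes from -0.07 to 0.27 and a median of 0.13. Over all tested genes the median was 0.0031. The edgeR p before adjustment was under 0.05 for Atm, Brca1 and Mdc1 (3 of 10), each higher in cKO, and 7.33% of all tested genes met that rule in that direction. In Brca1, Mdc1 and Setdb1 every cKO library lay above every WT library, against 10% of all tested genes. DESeq2 also called none of the 10. Because these are whole testes, fewer cells of a type and less RNA per cell cannot be told apart.

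The kinases and the kinase activator are described first. Atr (ENSMUSG00000032409, GRCm38 chr9:95857597-95951781, plus strand), the kinase of the sex body, was at 471.7, 443.5 and 444.7 CPM in WT and at 444.9, 570.1 and 503.3 CPM in cKO libraries 1, 2 and 3. The library cKO 1 sat among the WT values, so the groups overlapped, while cKO 2 and cKO 3 lay above all of them. The log2 fold change was 0.16 (SE 0.086, edgeR adjusted p = 0.429), and it was 0.24 without cKO replicate 1 and 0.07 without cKO replicate 2. Atm (ENSMUSG00000034218, chr9:53439149-53536740, minus strand), the kinase that responds to double-strand breaks, was at 17.8, 17.7 and 18.9 CPM in WT and at 17.4, 25.2 and 23.0 CPM in cKO. For Atm cKO 1 was the lowest of the 6 libraries and cKO 2 the highest. Its mean of 21.8 ± 4.00 CPM (SD, n = 3) in cKO against 18.1 ± 0.648 CPM (SD, n = 3) in WT gave a log2 fold change of 0.27 (SE 0.12, edgeR adjusted p = 0.343). Without cKO replicate 1 the Atm difference was 0.41 with an edgeR adjusted p of 0.0250, and without cKO replicate 2 it was 0.15 with an adjusted p of 0.668.

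Topbp1 (ENSMUSG00000032555, chr9:103305215-103350428, plus strand) encodes the scaffold that switches ATR on. It was at 121.6, 104.7 and 112.6 CPM in WT and at 126.2, 125.3 and 121.1 CPM in cKO. The lowest cKO library and WT 1 were nearly level, so the groups overlapped narrowly, and the log2 fold change was 0.14 (SE 0.071, edgeR adjusted p = 0.406), or 0.085 without WT replicate 2. Unlike the kinases, Topbp1 was as high in cKO 1 as in cKO 2.

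**Figure D1:**
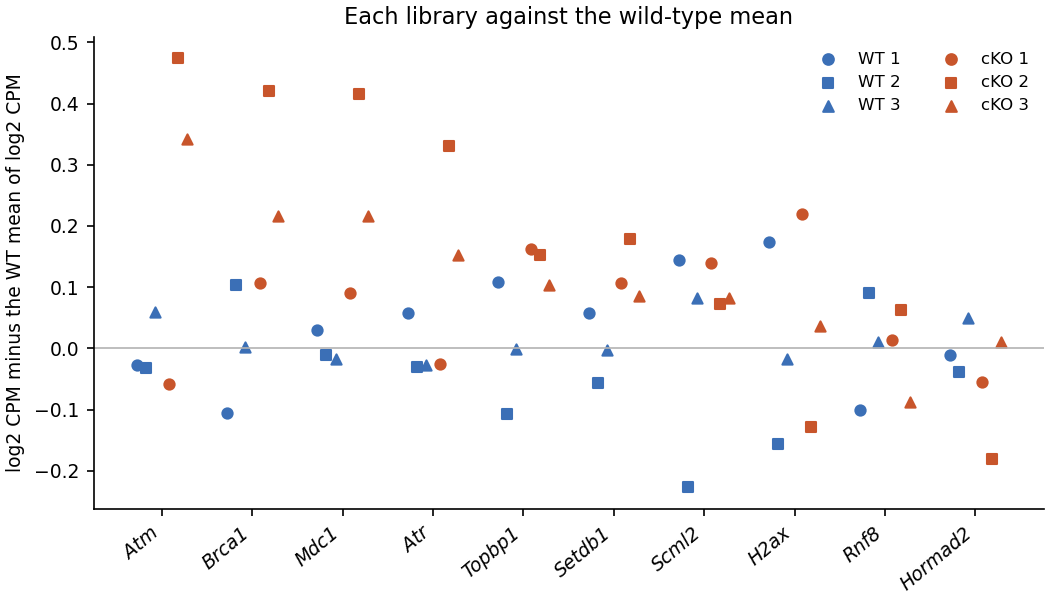
Each point is 1 library's log2 CPM minus the mean log2 CPM of the 3 WT libraries, for the 10 genes ordered by log2 fold change. In Atm, Brca1, Mdc1 and Atr the points of cKO 2 and cKO 3 lie highest and cKO 1 lies lower, whereas Rnf8, H2ax and Hormad2 show no such spacing.

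Of the adaptors around the phosphorylated histone, Brca1 and Mdc1 were the ones without overlap between the groups, and their promoters are shown because they are the members with the lowest unadjusted p. RefSeq entries on GRCm38.p6 matched 9 of the 10 genes by symbol. The 250 bases upstream of each annotated start follow, 5′ to 3′ on the gene's strand, with matches on either strand to TGACGT, the core of the cyclic AMP response element, in capitals.
Brca1 (chr11:101551956-101552205, minus strand): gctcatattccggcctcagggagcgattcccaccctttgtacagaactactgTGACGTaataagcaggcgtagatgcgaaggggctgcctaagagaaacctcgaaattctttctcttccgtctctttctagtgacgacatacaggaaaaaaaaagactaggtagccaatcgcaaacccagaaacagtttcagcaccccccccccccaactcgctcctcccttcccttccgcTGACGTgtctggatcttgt
Mdc1 (chr17:35841248-35841497, plus strand): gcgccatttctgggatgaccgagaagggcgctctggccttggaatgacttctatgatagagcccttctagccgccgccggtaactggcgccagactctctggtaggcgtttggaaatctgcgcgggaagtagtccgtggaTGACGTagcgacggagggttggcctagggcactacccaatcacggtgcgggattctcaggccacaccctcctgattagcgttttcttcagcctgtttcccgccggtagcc
Brca1 held 2 matches and Mdc1 held 1, and the other 7 promoters held none. Of 32851 promoters of the same length, 6.47% held the letters. The MYB-type site AACNGNC, searched on both strands, was in 6 of the 9 promoters and in 27.7% of all. The letters GCATGCGC, found in sites of the factor NRF1, were in 1 of the 9 and in 2.26% of all. These matches describe letters, and factor binding was not measured.

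Brca1 (ENSMUSG00000017146, chr11:101488764-101551955, minus strand), a ubiquitin ligase subunit and repair protein, was at 15.0, 17.35 and 16.2 CPM in WT and at 17.39, 21.6 and 18.8 CPM in cKO. The groups did not overlap, but WT 2 and cKO 1 were almost level, and with library totals alone as scaling they overlapped. Its log2 fold change was 0.25 (SE 0.095, edgeR adjusted p = 0.310), or 0.16 without cKO replicate 2. Mdc1 (ENSMUSG00000061607, chr17:35841515-35859670, plus strand), the reader that spreads phosphorylated H2AX, was at 252.7, 245.7 and 244.5 CPM in WT and at 263.6, 330.2 and 287.6 CPM in cKO. No library overlapped here, also under both other scalings, and the cKO libraries were more spread out than the WT libraries. The mean was 293.8 ± 33.7 CPM (SD, n = 3) in cKO and 247.6 ± 4.45 CPM (SD, n = 3) in WT. The cKO level was 118.6% of WT, with 95% limits of 104.9% and 134.2% before correction for the number of genes. Mdc1 had the lowest unadjusted p of the 10 genes, 0.0108 in the edgeR test, and an adjusted p of 0.298. Without cKO replicate 1 its log2 fold change went from 0.25 to 0.32 and the edgeR adjusted p to 0.0396. Without cKO replicate 2 they were 0.155 and 0.584.

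H2ax (ENSMUSG00000049932, listed as H2afx, chr9:44334694-44336077, plus strand), the histone that carries the damage mark, was at 62.5, 49.7 and 54.7 CPM in WT and at 64.5, 50.7 and 56.8 CPM in cKO. Both groups covered nearly the same range. The log2 fold change was 0.04, with 95% limits of -0.18 and 0.26, and changed sign without WT replicate 2 or cKO replicate 1 (-0.03 and -0.05). Rnf8 (ENSMUSG00000090083, chr17:29614790-29644991, plus strand), the ubiquitin ligase recruited by MDC1, was at 4.88, 5.58 and 5.28 CPM in WT and at 5.29, 5.47 and 4.93 CPM in cKO. The libraries were interleaved, and the cKO level was 99.65% of WT with limits of 85.2% and 116.6%. Rnf8 rested on 287 to 386 reads per library, the fewest of the 10 genes. The gene Gm28043 on the same strand covers 13.2% of its exon bases, so some reads there are ambiguous and the count is uncertain. Stretches of 75 bases shared with other genes' transcripts made up 12.7% of Rnf8, 7.45% of Setdb1, 6.87% of H2ax and 4.2% of Atr, and at most 0.633% of the other 6.

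The axis protein and the chromatin regulators complete the list. Hormad2 (ENSMUSG00000020419, chr11:4345814-4441105, minus strand), the axis protein needed to load ATR on unsynapsed chromosomes, was at 21.7, 21.3 and 22.6 CPM in WT and at 21.1, 19.3 and 22.0 CPM in cKO. Its lowest library was cKO 2, the library in which Atm, Atr, Brca1 and Mdc1 were highest. The log2 fold change was -0.07 (SE 0.077, edgeR adjusted p = 0.711), with -0.02 without cKO replicate 2 and -0.12 without cKO replicate 3. Setdb1 (ENSMUSG00000015697, chr3:95323525-95357202, minus strand), the methyltransferase for histone H3 lysine 9, was at 81.8, 75.6 and 78.45 CPM in WT and at 84.6, 88.9 and 83.4 CPM in cKO. These libraries did not overlap under any of the 3 scalings, yet the difference was small, 0.12 on the log2 scale (SE 0.065, edgeR adjusted p = 0.420). Scml2 (ENSMUSG00000000037, chrX:161117193-161258213, plus strand), a germline Polycomb protein, is the only X-linked gene among the 10. It was at 40.6, 31.4 and 38.9 CPM in WT and at 40.45, 38.6 and 38.9 CPM in cKO. WT 2 stood below the other 5 libraries, and without it the log2 fold change of 0.09 (SE 0.092, edgeR adjusted p = 0.6998) became -0.02.

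**Figure D2:**
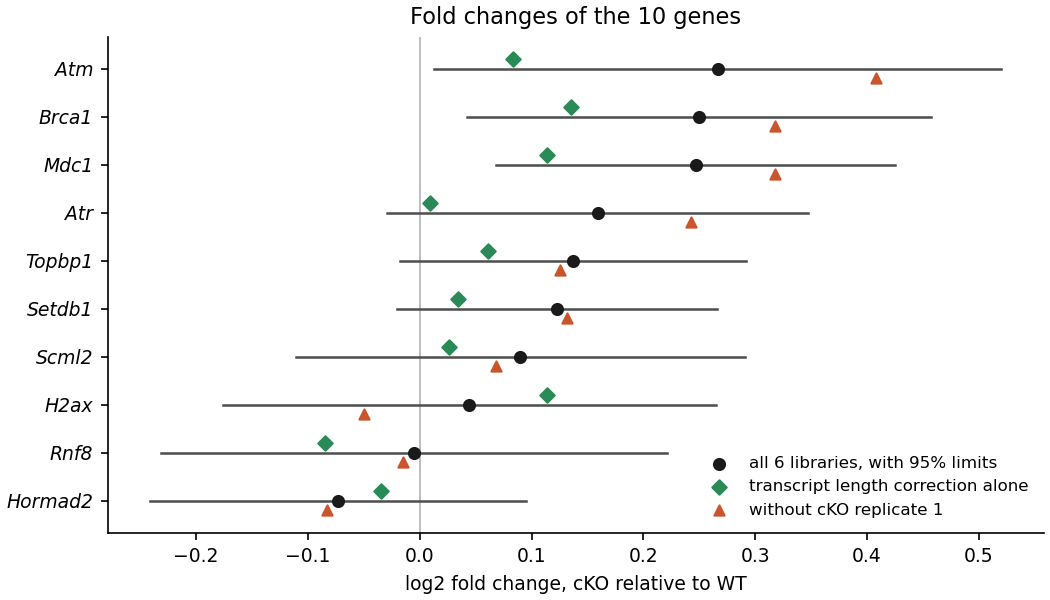
Log2 fold change of each gene, cKO relative to WT, from all 6 libraries with 95% limits (black), with a transcript length correction (green) and without cKO replicate 1 (orange). The limits of Atm, Brca1 and Mdc1 lie above 0 before correction for multiple testing, and the length correction brings each of the 3 closer to 0.

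Levels were compared between genes only after dividing by the length of the principal annotated transcript. On this scale, the means over the 6 libraries were 59.2 CPM per kb for Atr, 40.8 for H2ax and 36.9 for Mdc1, followed by Topbp1 at 22.7, Setdb1 at 17.6, Hormad2 at 10.8 and Scml2 at 7.88 CPM per kb. Brca1 at 2.70, Atm at 2.04 and Rnf8 at 0.969 CPM per kb were lowest. Of the neighbours in this order, H2ax and Mdc1 overlapped between libraries, as did Brca1 and Atm. The other neighbours did not. Atr, the sex body kinase, was thus above Atm per unit of transcript in each library. The rank of Atr depended on the length used: per kb of all merged exons it was at 20.3 CPM, below H2ax at 40.8 and Mdc1 at 36.5 CPM per kb. On that length Setdb1 at 11.98 also came before Topbp1 at 10.56 CPM per kb, and the order of the other genes was as above.

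**Figure D3:**
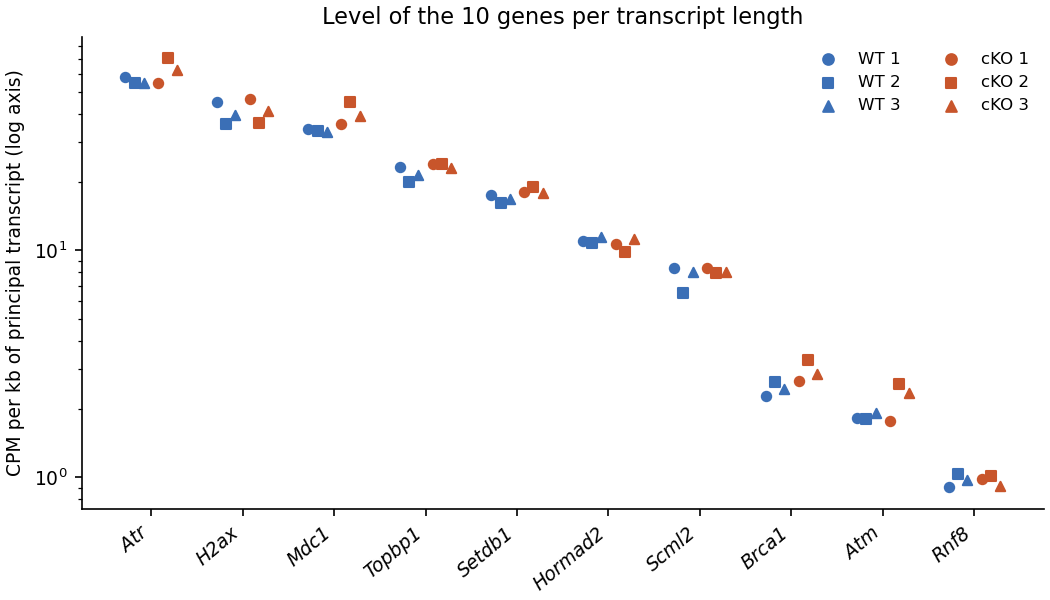
CPM per kb of principal transcript for the 10 genes on a log axis, 1 point per library, WT in blue and cKO in orange. Genes run from Atr at a mean of 59.2 to Rnf8 at 0.969 CPM per kb, and within a gene the 6 libraries lie close together compared with the distance between most genes.

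Transcript length moved with these differences. Of the 10 genes, 8 fall in the longest of 4 equal classes of tested genes by longest annotated transcript (4209 bases or more), H2ax with 1384 bases is in the shortest class and Hormad2 with 1969 bases in the next. The 5463 genes of the longest class had a median difference of 0.11 on the log2 scale, 76.9% of them were higher in cKO and 23.2% had all cKO libraries above all WT libraries. In this class 21.2% had an unadjusted edgeR p under 0.05 and were higher in cKO, against 7.33% of all tested genes. The shortest class had a median of -0.13, with 24.97% higher in cKO and 1.92% without overlap in that direction. Among the long genes the median deviation from the WT mean was 0.15 in cKO 2, 0.10 in cKO 3 and 0.03 in cKO 1, the order of the libraries in Atm, Atr, Brca1 and Mdc1. The median of the 10 genes, 0.13, includes the shorter H2ax and Hormad2, so it is not a like comparison with the longest class. With a loess correction for transcript length alone the differences were 0.08 for Atm, 0.135 for Brca1, 0.11 for Mdc1 and 0.0090 for Atr, and the median of the 10 was 0.05. What gave rise to the length pattern was not tested.

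**Figure D4:**
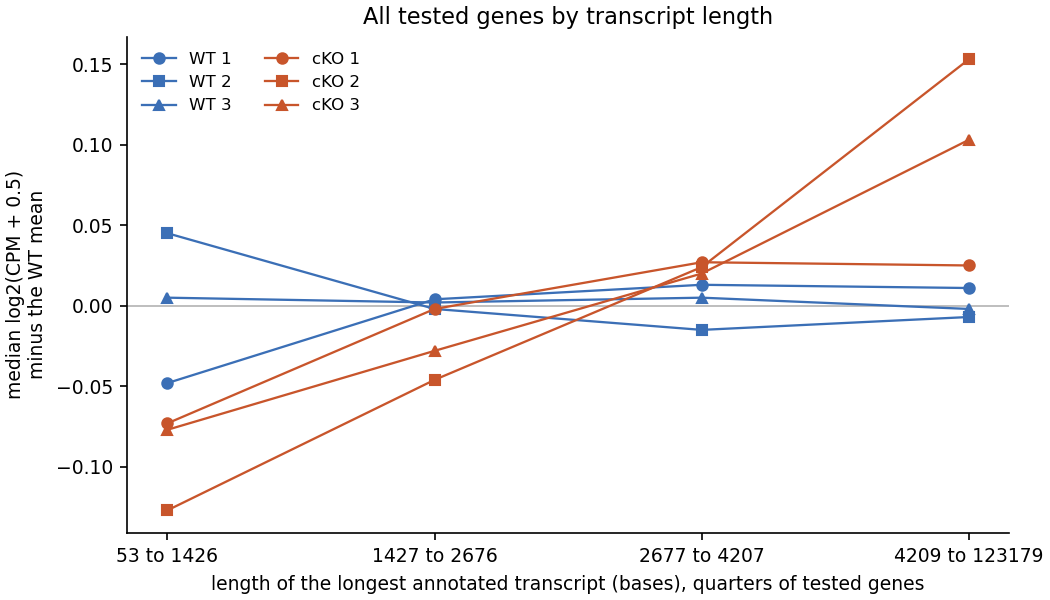
Median over all tested genes of log2(CPM + 0.5) minus the WT mean, by library and by class of transcript length in bases (4 equal classes). The lines of cKO 2 and cKO 3 run from below 0 in the shortest class to 0.15 and 0.10 in the longest, while the WT lines stay within 0.05 of 0.

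By the pattern over the 6 libraries, the genes most like Mdc1 among 10050 others with a mean of at least 10 CPM were Clec16a, Ccar1 and Slk. Their root mean square difference from Mdc1, after subtracting each gene's mean, was 0.013, 0.013 and 0.014 on the log2 scale. A total of 301 genes (2.995%) lay within 0.05 of Mdc1 by this measure. This is a description of 6 libraries and carries no test.

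The wider damage response and sex body machinery, 65 further genes in 6 groups, was all tested, with 0 past the edgeR threshold in either direction. Unadjusted, 10 of the 65 had a p under 0.05 in the edgeR test, each higher in cKO, against 7.33% of all tested genes in that direction. Of the longest class of transcripts, which holds 30 of the 65, 21.2% met that rule. This list too was chosen with earlier results of these data known. DESeq2 called 1 of them, Chd4. In all, 52 were higher and 13 lower, with a median log2 fold change of 0.065. Length moved with this list too: 29 of its 30 genes in the longest class were higher, with a median of 0.16, and its 35 other genes had a median of 0.03.

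Break sensors and nuclease genes had the highest group median, 0.16, with 4 of 4 higher. Rad50, of the MRE11 complex that activates ATM, was at 26.6, 24.2 and 23.6 CPM in WT and 25.9, 31.7 and 29.5 CPM in cKO (log2 fold change 0.23, edgeR adjusted p = 0.310). Rbbp8, which starts end resection, had 0.175 (edgeR adjusted p = 0.344). In the sex body chromatin group 17 of 19 were higher (median 0.07). Its leading gene was Chd4, the nucleosome remodeller, at 292.1, 283.5 and 277.7 CPM in WT and 311.3, 394.6 and 349.6 CPM in cKO without overlap (log2 fold change 0.31, edgeR adjusted p = 0.276). The H3 lysine 9 methyltransferase gene Ehmt1 had 0.20 (edgeR adjusted p = 0.331).

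Adaptors and the ubiquitin pathway had 11 of 14 higher, with a median of 0.08. Herc2, a giant ubiquitin ligase that works with RNF8, was at 106.2, 119.3 and 98.2 CPM in WT and 102.5, 198.4 and 161.0 CPM in cKO. Only cKO 2 and cKO 3 were above WT, and the log2 fold change was 0.51 (SE 0.18, edgeR adjusted p = 0.302) with all libraries, 0.735 (edgeR adjusted p = 0.00446) without cKO replicate 1 and 0.288 (adjusted p = 0.5998) without cKO replicate 2. The deubiquitinase gene Usp7 had 0.20 without overlap (edgeR adjusted p = 0.307). Checkpoint kinases and clamp genes had a median of 0.03 with 9 of 12 higher, led by the DNA-dependent kinase gene Prkdc at 0.31 and by Rhno1, an ATR pathway cofactor, at 0.155. Fanconi anemia genes had a median of 0.065 with 6 of 8 higher, led by Fancm at 0.18 and Slx4 at 0.19. Axis and synapsis genes had a median of 0.03 with 5 of 8 higher, and here Ankrd31 at 0.18 and the synaptonemal complex gene Syce2 at -0.15 pointed in opposite directions. Without cKO 2 the differences were 0.14 for Prkdc, 0.105 for Fancm, 0.04 for Slx4, 0.125 for Usp7, 0.10 for Ankrd31 and -0.07 for Syce2. Without cKO 1 they were 0.47 for Prkdc and 0.29 for Slx4, and Prkdc passed the edgeR threshold (adjusted p = 0.0375), as did Chd4 (0.39, adjusted p = 0.0176). Without WT 2 Rhno1 was at 0.08.

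Genes on the chromosomes that are silenced were read as a separate list of 31, of which 30 were tested and none passed the threshold. Rbmy had 0 counted reads in every library. Reads not assigned to a single gene were left out, so this does not show that the gene was silent. X-linked genes of spermatogonia, which are switched off at pachytene, had a median of 0.02 with 7 of 12 higher. Their leading genes were Tex16 at 0.18 (edgeR adjusted p = 0.390) and Fthl17a at -0.14 (edgeR adjusted p = 0.619). Of the Y-linked genes 6 of 8 were lower (median -0.04), with the zinc finger gene Zfy1, whose silencing is needed for spermatocytes to survive, at 4.93, 5.89 and 5.69 CPM in WT and 3.99, 4.49 and 5.07 CPM in cKO (log2 fold change -0.29, edgeR adjusted p = 0.329). The deubiquitinase gene Usp9y had 0.20 (edgeR adjusted p = 0.472). Without cKO replicate 1 Usp9y was at 0.34 and Fthl17a at -0.275, and without cKO replicate 3 they were at 0.10 and -0.06.

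X-linked genes of spermatids, active after meiosis, had a median log2 fold change of -0.19, with 9 of 10 lower in cKO, 4 at an unadjusted edgeR p under 0.05 and 3 without overlap. All tested genes gave 6.54% and 8.85% by the same rules. This list was chosen with earlier results of these data known, so its counts are a description and carry no test. The near copies Cypt1 and Cypt3 are both among its genes without overlap. Length moved with this list as well: 6 of the 10 genes fall in the shortest class of transcripts, whose median over all tested genes was -0.13. Those 6 had a median of -0.30, and the other 4 had a median of -0.10. The shares by the rules above were not taken over the shortest class alone. Cypt1, of a family of spermatid perinuclear theca genes, was at 119.1, 138.3 and 149.8 CPM in WT and 86.1, 90.7 and 108.1 CPM in cKO, with every cKO library below every WT library (log2 fold change -0.515, SE 0.10, edgeR adjusted p = 0.276). It passed the threshold with DESeq2 (adjusted p = 0.00188), without a filter on low counts and in 2 of the 6 fits that left out a library. Cypt3 was at 91.2, 112.0 and 121.2 CPM in WT and 83.8, 69.0 and 83.6 CPM in cKO (log2 fold change -0.46, edgeR adjusted p = 0.276). Cypt genes are near copies of each other and among the shortest tested (672 and 669 bases), so their counts are uncertain. With the length correction the differences were -0.38 and -0.32.

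**Figure D5:**
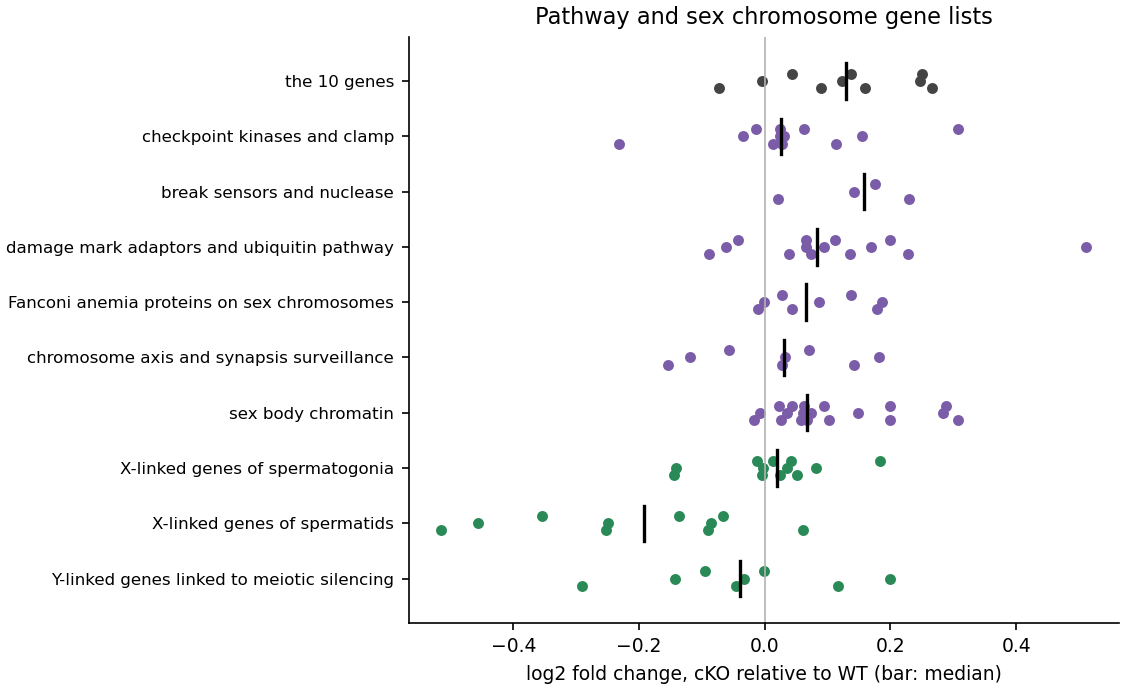
Log2 fold changes, cKO relative to WT, of the 10 genes (grey), of the pathway groups (purple) and of the sex chromosome lists (green), 1 point per tested gene with the median as a bar. Medians lie at or above 0 in the pathway groups and in the X-linked spermatogonial list, and at -0.19 in X-linked genes of spermatids.

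Markers of germ cell stages and of somatic cells were read beside these values. Round spermatid markers summed to 1430 to 1520 CPM in WT and 1216 to 1389 CPM in cKO, without overlap, with 7 of 8 lower and the lowest sum in cKO 2. Spermatogonial markers summed to 663 to 689 CPM in WT and 698 to 764 CPM in cKO, also without overlap, with 8 of 10 higher and the highest sum in cKO 2. Among single tested genes 8.85% were lower and 10% higher without overlap, and no such share was taken for sums. The marker sums were not corrected for transcript length. Over all tested genes, the median deviation of cKO 2 from the WT mean was -0.127 in the shortest class and 0.153 in the longest. The part of transcript length in the marker sums was not tested. Elongating spermatid markers overlapped, at 17620 to 19450 CPM in WT and 15350 to 18750 CPM in cKO, with 5 of 8 lower. Sums of each somatic list overlapped too. Higher were 7 of 8 Sertoli and 4 of 5 endothelial markers. Lower were 6 of 7 macrophage, 5 of 7 Leydig and 4 of 5 peritubular myoid markers. The macrophage sums themselves ran from 96.7 to 110.0 CPM in WT and from 99.1 to 110.6 CPM in cKO. For spermatocytes, the cells in which silencing takes place, the groups overlapped in both lists. Leptotene and zygotene markers summed to 521 to 530 and 527 to 532 CPM, and pachytene and diplotene markers to 4418 to 4480 and 4376 to 4627 CPM, in WT and cKO. No marker of these lists passed the edgeR threshold, none was at 0 in any library, and their part in the differences above was not tested.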

How the data were processed

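Each library has a deposited table of read counts by gene identifier, laid out as STAR writes its gene counts. Per the submitters' processing notes, the build was mm10 and STAR, HTSeq and DESeq2 were used; versions, annotation release and library kit are not given in the sources used here. Counts on the strand opposite the gene label made up 96.0% to 96.2% of the stranded counts and were used. Lines for reads outside single genes, 14.76% to 16.75% of all reads, were left out. Symbols, positions and lengths came from GENCODE M21 (GRCm38), which matched 52093 identifiers.

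Counts were tested with edgeR 4.0.16 (R 4.3.3): after filterByExpr (minimum count 10) and TMM scaling, genes entered a quasi-likelihood F test with genotype as the only term, and p-values of 21902 genes were adjusted by Benjamini-Hochberg and called at 0.05. Standard errors were derived from the F statistic. DESeq2 1.42.0 and the settings named in the closing section were alternatives. In simulated WT and cKO counts with 200 altered genes, 51% were called at a log2 change of 0.5 (21674 genes tested) and 85% at 1 (21659 tested). Of those calls 14.3% and 7.1% were false. The log2 fold changes of the 10 genes ran from -0.07 to 0.27, and detection at such sizes was not tested. These rates were also not taken by class of transcript length.

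The members and lists were chosen with earlier results of these data known. Named were the 10 genes, Msl3, the 2 genes of lowest p in each list group and the 3 genes nearest the member of lowest p. Nothing states that the mice were littermates or matched. The p-values set the difference between the groups against the spread between these libraries.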

Additional observations from a re-analysis of the deposited data

Results flagged for a closer look

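Reads on the gene's own strand, which the comparison did not use, made up 17.98% of the stranded reads of Rnf8 (429 reads, 15.9% to 19.4% by library). Over all genes the share was 3.84% to 4.01% by library, and the other 9 genes were between 0.0281% and 2.02%. No annotated gene overlaps the exons of Rnf8 on the opposite strand. With unstranded counts its log2 fold change was -0.02. Groups of 3 are too small for a test of single libraries.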

How the results depend on the processing

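Of 18 alternatives, 2 (corrections for GC content alone and for transcript length alone) were added after seeing the data. The genes past the threshold, 4 with the settings above, numbered 757 without a filter on low counts, 2 with unstranded counts, 49 with a replicate block, 8 with the GC content correction alone and 194 with DESeq2. They numbered 1 to 628 when a library was left out: 116, 2 and 1 without WT replicates 1, 2 and 3, and 628, 1 and 7 without cKO replicates 1, 2 and 3. Of the 10 genes 0 passed, except that leaving out a library gave 0 to 2, the 2 being Atm and Mdc1 without cKO replicate 1. Over those 6 fits the log2 fold change ran from 0.15 to 0.41 for Atm, 0.07 to 0.24 for Atr, 0.085 to 0.194 for Topbp1, 0.16 to 0.32 for Brca1, 0.155 to 0.318 for Mdc1, -0.12 to -0.02 for Hormad2, 0.095 to 0.154 for Setdb1, -0.050 to 0.137 for H2ax, -0.053 to 0.041 for Rnf8 and -0.016 to 0.164 for Scml2. The GC content correction alone turned H2ax to -0.0010 and Rnf8 to 0.0050. Pathway genes past the threshold numbered 4 without the filter, 1 with DESeq2 and 0 to 7 with a library left out, all higher. Among all genes past the threshold, 354 of 757 were higher without the filter and 87 of 194 with DESeq2. Without cKO replicate 1, the fit that called Atm, Mdc1 and the 7 pathway genes, 549 of the 628 were higher. Sex chromosome genes numbered 2 without the filter, 1 with the replicate block, 2 with DESeq2 and 0 to 2 with a library left out, all Cypt1 or Cypt3 and lower. Without the filter the 4 were Herc2, Chd4, Dot1l and Prkdc. The 18 other list genes named kept their direction throughout. They were named for the lowest p of their groups in these data. Each alternative reused the same libraries, so the kept direction is no independent support. The cause of the changes between settings was not tested.

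For the pairing of WT and cKO libraries by number, the correlations between their deviations were 0.346, 0.261 and -0.046. Libraries of different number were not compared, so these values cannot decide whether same-numbered libraries share an effect. The labels name no pairs, and the main fit did not use the numbers. With the replicate block 0 of the 10 genes were called. Rnf8 had the fewest reads of the 10 genes, and its standard error of 0.104 was close to that of H2ax, 0.101.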
